A study of Homo sapiens with 6 samples.

Results

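The 36 genes described here encode the transporters and enzymes of glycolysis, the enzymes that set its flux, and further genes known to be induced by low oxygen. They were chosen by name, as 3 transporters, 17 glycolytic enzymes, 3 flux regulators and 13 other hypoxia-induced genes. Earlier results of these data were known when they were chosen. All 36 were found among the 58336 genes of the count table, and all 36 were among the 15673 genes that passed the filter on low counts and were tested. Glycolysis splits glucose into pyruvate in the cytosol, and lactate dehydrogenase then turns pyruvate into lactate, which leaves the cell with a proton. Under low oxygen the transcription factor HIF, made of an oxygen-sensitive alpha subunit (HIF1A or EPAS1) and a constant partner (ARNT), escapes hydroxylation and decay, binds short motifs near its targets and raises most of these genes. The same genes are known to be high in many triple-negative breast cancers.

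Poly(A) RNA was sequenced in 6 libraries of SUM159, an established human triple-negative breast cancer cell line. ITGB4 is the integrin beta-4 subunit by whose level the labels divide the cells. The bleomycin lung group is 1 library of ITGB4-low clone 1, from cells that reached mouse lungs through the tail vein before bleomycin, a drug that injures lung tissue, was given by way of the trachea. The LM2 lung group is 2 libraries, ITGB4-low clones 1 and 3, from cells put into mouse lungs together with LM2 cells, which derive from MDA-MB-231 breast cancer cells and readily colonise the lung. The clone of the second LM2 library rests on its title. The ITGB4-high group is 1 library of dish-grown cells with no clone number, and the control group is 2 libraries of dish-grown ITGB4-low clones 1 and 3. The 3 lung-recovered libraries passed through a mouse lung, dissociation, a night in culture and a sort for tdTomato, the fluorescent protein that marks them, and the dish-grown cells did not, so the trigger and these steps cannot be told apart. Age, sex and strain of the mice and the oxygen in any step were not given in the sources used here.

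Total counts ran from 13607953 to 22222121 per library, mitochondrial transcripts took 5.35% to 7.08%, and the 36 genes together took 0.955% to 1.13% of the counts. Levels are given as CPM, counts scaled to a common library total with TMM factors, and 3 counts, the limit that a count of 0 allows, were worth 0.138 to 0.232 CPM, which covers counting error only. ITGB4 itself stood at 305 CPM in the bleomycin library, 470 and 441 CPM in LM2 clones 1 and 3, 383 CPM in ITGB4-high cells, and 25.9 and 24.6 CPM in control clones 1 and 3. The LM2 pair differed far more than the control pair (chi-square over its degrees of freedom 70.8 in the LM2 pair and 7.81 in the control pair). Nothing states that the libraries came from separate mice, so p-values measure only the spread between these libraries. In bulk RNA, fewer cells of a type and less RNA per cell cannot be told apart.

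Most glycolytic enzymes had levels close to control, and the genes that stood apart from control lay on both sides of it. In the 3 lung-recovered libraries the glucose transporter SLC2A3, the hexokinase HK1, the growth factor VEGFA and the secreted protein ANGPTL4 were above both controls. The peptide hormone gene ADM, the mitophagy receptor BNIP3L and the stress gene NDRG1 were below both. For ANGPTL4 in LM2 clone 3, with 10 counts against 9 in its own control, the difference was not beyond counting error. In ITGB4-high cells ANGPTL4, VEGFA, PFKFB3 and PFKFB4 were above the controls and ADM, PFKL, EGLN3 and DDIT4 below. None of these differences passed the test (edgeR's quasi-likelihood test, Benjamini-Hochberg adjusted p under 0.05 over all 15673 genes).

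**Figure D1:**
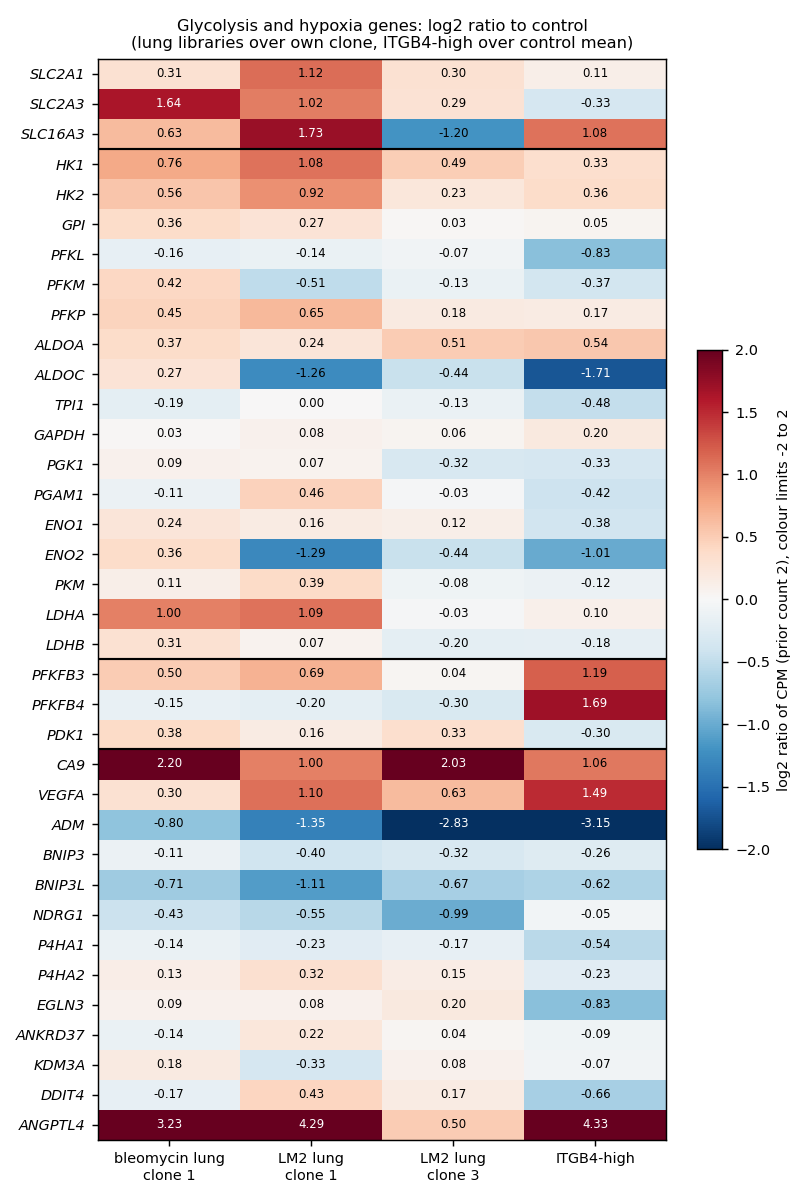
Heat map of the log2 ratio of CPM (prior count 2) for the 36 genes (rows, in the order of their roles) in 4 libraries (columns): each lung library over the control of its own clone, and ITGB4-high over the mean of both controls. Colours stop at -2 and 2 and each cell prints its value; ADM is below 0 and ANGPTL4 above 0 in all 4 columns, GAPDH lies between 0.03 and 0.20, and SLC16A3 is at 1.73 in LM2 clone 1 and at -1.20 in LM2 clone 3.

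The letters through which HIF acts were looked for in the RefSeq promoter windows of the genes (GRCh38.p14, 250 bases before to 50 after the start). The core of a hypoxia response element is written ACGTG or GCGTG, and it was searched on both strands, where it reads CACGT or CACGC, so that the palindrome CACGTG counts on each strand. Of the 36 genes, 32 had a window in the table, all but SLC2A3, VEGFA, BNIP3L and NDRG1. Either form was present in 27 of these 32 windows (84.4%), against 17012 of the 35114 windows in the table (48.4%). ACGTG was in 16 (50%) against 21.4% of all windows, and GCGTG in 17 (53.1%) against 36.5%. The windows of the table were not matched to these genes in expression or base content, and the shares were not tested. The letters were not in the windows of HK1, PFKM, PGAM1, P4HA2 and EGLN3. A match describes the sequence and does not show a bound site, and these data hold no measure of binding.

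Stretches of 6 of these windows are shown because their genes stood at very different places in the data: CA9 above both controls in all lung libraries, ANGPTL4 and LDHA high in the clone 1 lung libraries, ADM low, PFKFB4 high in ITGB4-high cells alone, and GAPDH flat. Each is written 5′ to 3′ on the strand of its gene, and the capitals mark the motif letters.
CA9: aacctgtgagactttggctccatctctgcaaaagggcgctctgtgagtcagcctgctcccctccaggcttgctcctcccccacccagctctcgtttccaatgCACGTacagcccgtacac
ANGPTL4: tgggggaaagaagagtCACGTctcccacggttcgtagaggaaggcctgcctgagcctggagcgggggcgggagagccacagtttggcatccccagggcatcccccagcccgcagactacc
LDHA: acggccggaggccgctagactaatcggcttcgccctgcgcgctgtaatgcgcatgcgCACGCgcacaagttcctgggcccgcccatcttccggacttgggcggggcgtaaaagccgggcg
ADM: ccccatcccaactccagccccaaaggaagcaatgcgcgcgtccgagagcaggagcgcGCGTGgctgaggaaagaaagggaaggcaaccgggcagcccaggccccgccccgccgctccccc
PFKFB4: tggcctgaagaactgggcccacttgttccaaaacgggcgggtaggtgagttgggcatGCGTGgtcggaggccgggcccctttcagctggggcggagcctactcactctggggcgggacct
GAPDH: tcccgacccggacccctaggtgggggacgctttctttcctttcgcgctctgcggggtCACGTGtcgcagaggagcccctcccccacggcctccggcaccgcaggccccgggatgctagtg

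The CA9 stretch is chr9:35673808-35673927 (plus strand), with its motif starting 18 bases before the start. The ANGPTL4 stretch is chr19:8363905-8364024 (plus), the LDHA stretch chr11:18396171-18396290 (plus), the ADM stretch chr11:10304915-10305034 (plus), the PFKFB4 stretch chr3:48556907-48557026 (minus) and the GAPDH stretch chr12:6535126-6535245 (plus). ADM, low in every lung library and in ITGB4-high cells, and ANGPTL4, high in most of them, thus both carry the letters, as does the flat GAPDH.

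All lung-recovered cells were compared with control cells to ask what the 3 lung-recovered libraries share. Of the 36 genes, 0 passed the test in edgeR, against 0.498% of all genes tested, and 0 passed in limma-voom. With no adjustment, p was under 0.05 for 8 members that were higher (9.26% of all genes) and 3 that were lower (11.3% of all genes), together 30.6% of the members against 20.5% of all genes. The 8 were SLC2A3, HK1, HK2, PFKP, PDK1, CA9, VEGFA and ANGPTL4, and the 3 were ADM, BNIP3L and NDRG1. DESeq2 called 5 genes, 14.3% of the members with a DESeq2 adjusted p against 8.85% of all such genes. These were HK1 and ANGPTL4, which were higher (4.48% of all genes), and ADM, BNIP3L and NDRG1, which were lower (4.36%). The median fitted log2 fold change was 0.12 over the members and 0 over all genes tested. All 3 lung libraries lay above both controls for 15 members (41.7%, against 20.4% of all genes) and below both for 6 (16.7%, against 25.4%). Each lung library was above the control of its own clone for 16 members (44.4%, against 23.9% of all genes) and below it for 7 (19.4%, against 29.1%). Without LM2 clone 3 the edgeR count was 4 (11.1%, against 6.48% of all genes), without LM2 clone 1 it was 1 (2.78%, against 2.47%), and without any other library it was 0.

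Of the transporters, SLC2A3 (GLUT3, a high-affinity glucose carrier; ENSG00000059804, chromosome 12, 7919230 to 7936275, minus strand) had the largest fitted change. SLC2A3 stood at 101 CPM in the bleomycin library, 66.1 and 38.9 CPM in LM2 clones 1 and 3, 25.5 CPM in ITGB4-high cells, and 32.4 and 31.7 CPM in control clones 1 and 3. The lung libraries were all above both controls, the bleomycin library highest, and ITGB4-high was the lowest of the 6. The lung cells averaged 68.8 ± 31.2 CPM (SD, n = 3) and the controls 32.1 ± 0.509 CPM (SD, n = 2), a log2 fold change of 1.10 (SE 0.39, adjusted p = 0.205). Bleomycin alone against control gave 1.66 (SE 0.32, adjusted p = 0.202 in edgeR and 0.00294 in DESeq2).

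SLC2A1 (GLUT1, the basal glucose carrier; chromosome 1, 42925375 to 42959176, minus strand) was above both controls in every lung library, but by much in LM2 clone 1 alone. SLC2A1 stood at 118 CPM in the bleomycin library, 206 and 130.4 CPM in LM2 clones 1 and 3, 108 CPM in ITGB4-high cells, and 94.8 and 106 CPM in controls (lung against control 0.59, SE 0.26, adjusted p = 0.266). Per exonic kilobase SLC2A3 made up 39.8% of the SLC2A1 and SLC2A3 level in the bleomycin library, 19.7% and 18.6% in the LM2 libraries, 15.3% in ITGB4-high cells, and 20.8% and 18.7% in controls. The bleomycin library thus differed from the other 5 in its mix of glucose carriers.

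The sum of the macrophage and myeloid markers was highest where SLC2A3 was highest, in the bleomycin library. The summed CPM of 8 such markers was 12.8 in the bleomycin library, 4.95 and 4.6 in LM2 clones 1 and 3, 2.26 in ITGB4-high cells, and 4.77 and 4.04 in controls. MARCO had the most in the bleomycin library, with 6.08 CPM there, 1.01 and 3.19 CPM in LM2 clones 1 and 3, 0.583 CPM in ITGB4-high cells, and 2.49 and 2.94 CPM in controls. PTPRC was at 2.69 CPM in the bleomycin library but also at 2.32 CPM in LM2 clone 1, with 0.255 CPM in LM2 clone 3, 0.0729 CPM in ITGB4-high cells, and 0.207 and 0.184 CPM in controls. LYZ was highest in control clone 1 (0.899 CPM), AIF1 had 0 counts in every library, and CSF1R stayed at or under 0.155 CPM. All these markers are counts of human genes, while the cells of the host lung are mouse cells. The part of myeloid cells in the SLC2A3 value was not tested. Of 5 erythroid and 5 lymphocyte markers, 3 each had 0 counts in all libraries, and neither sum went above 0.184 CPM. The lung epithelium markers SFTPC, SFTPA1 and SCGB1A1 had 0 counts throughout. The sum of the 7 epithelial markers was 2.48 to 4.28 CPM in lung and ITGB4-high libraries against 6.5 and 5.74 CPM in controls. NKX2-1 made the control sum higher, at 4.08 and 3.9 CPM in controls, 1.4 CPM in LM2 clone 3 and 0 in the other libraries. AGER went the other way, at 3.52 CPM in the bleomycin library and 3.79 and 2.87 CPM in LM2 clones 1 and 3. It was at 2.48 CPM in ITGB4-high cells and 2.28 and 1.79 CPM in controls.

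SLC16A3 (MCT4, the lactate exporter of glycolytic cells; chromosome 17, 82228397 to 82261129, on the plus strand) split the LM2 pair. SLC16A3 stood at 36.7 CPM in the bleomycin library, 78.8 and 12.1 CPM in LM2 clones 1 and 3, 54.4 CPM in ITGB4-high cells, and 23.7 and 27.8 CPM in controls. LM2 clone 1 was the highest library and LM2 clone 3 the lowest, with the controls between them. The fitted change of LM2 against control was 0.81 (SE 0.84, adjusted p = 0.626). It turned to -1.10 without LM2 clone 1 and was 1.62 without LM2 clone 3. With a single LM2 library left, the spread rests on the control pair alone, so only these effect sizes are given. Its average over the clones describes neither of them.

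**Figure D2:**
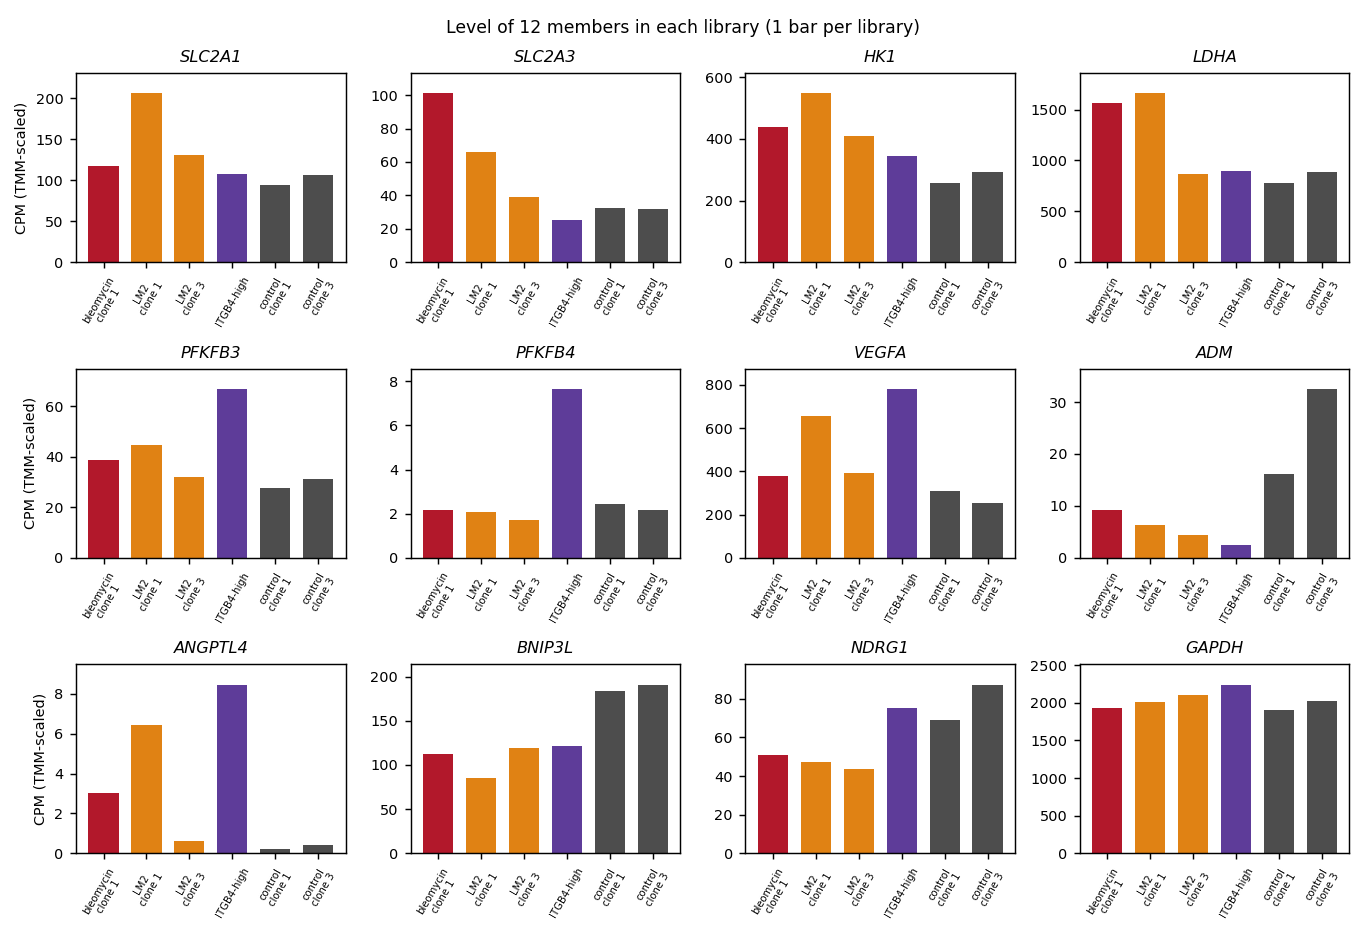
Bars give the TMM-scaled CPM of 12 genes in each of the 6 libraries (1 bar per library, linear axis from 0, own scale per panel), with bleomycin in red, LM2 in orange, ITGB4-high in purple and control in grey. SLC2A3 is highest in the bleomycin library (101 CPM), LDHA is high in both clone 1 lung libraries (1561 and 1658 CPM), ADM is highest in the controls (16.2 and 32.5 CPM) and PFKFB4 is high in ITGB4-high cells (7.65 CPM).

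Among the 17 glycolytic enzymes, 0 passed the test in any comparison. In lung cells against control the fitted log2 fold changes ran from -0.40 to 0.76 with a median of 0.09, against 0 for all genes. Both hexokinases, which trap glucose in the cell as its 6-phosphate, were above control in all lung libraries. HK1 (ENSG00000156515, chromosome 10, 69269984 to 69401884, plus strand) had 437 CPM in the bleomycin library, 547 and 410.3 CPM in LM2 clones 1 and 3, 345 CPM in ITGB4-high cells, and 258 and 292 CPM in controls. HK1 averaged 465 ± 72.2 CPM in lung cells (SD, n = 3) and 275 ± 23.8 CPM in controls (SD, n = 2), a 1.69-fold difference (0.76, SE 0.17, adjusted p = 0.112 in edgeR, 0.00408 in DESeq2). HK2, the isoform usually credited with the hypoxic response, stood at 123, 159 and 116 CPM in the bleomycin, LM2 clone 1 and LM2 clone 3 libraries, 117 CPM in ITGB4-high cells, and 83.8 and 98.8 CPM in controls (0.54, SE 0.18, adjusted p = 0.185). The mix of the 2 hexokinases was nearly constant, with HK1 at 74% to 77.4% of their level per kilobase.

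LDHA, which converts pyruvate to lactate (ENSG00000134333, chromosome 11, 18394388 to 18408425, plus strand), was high in the lung libraries of clone 1 alone. LDHA stood at 1561 CPM in the bleomycin library, 1658 and 871 CPM in LM2 clones 1 and 3, 892 CPM in ITGB4-high cells, and 778 and 889 CPM in control clones 1 and 3. Against their own clone's control, the log2 ratios were 1.00 for bleomycin, 1.09 for LM2 clone 1 and -0.03 for LM2 clone 3. The groups overlapped, since LM2 clone 3 lay between the controls (lung against control 0.71, SE 0.30, adjusted p = 0.249). Genes around LDHA were high in the same libraries. The 96 tested genes within 10 Mb of LDHA had a median own-clone log2 ratio of 0.61 in the bleomycin library, 0.41 in LM2 clone 1 and -0.02 in LM2 clone 3. The part of this neighbourhood in the LDHA ratio was not tested.

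LDHB, the isoform that favours pyruvate formation, varied less, from 576 to 748 CPM over the 6 libraries. Of the exonic bases of LDHB, 33.4% overlap another annotated gene on the same strand, which held 0 counts. LDHA made up 50.1% of the LDHA and LDHB level per kilobase in the bleomycin library and 55.6% and 40.4% in LM2 clones 1 and 3. It made up 42.7% in ITGB4-high cells and 38.2% and 37.6% in controls. Reads of LDHA and GAPDH can also fall on their many processed copies: 6 numbered LDHA copies held 4138 counts over the 6 libraries beside 102308 for LDHA, and 62 GAPDH copies held 3929 beside 191526 for GAPDH.

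**Figure D3:**
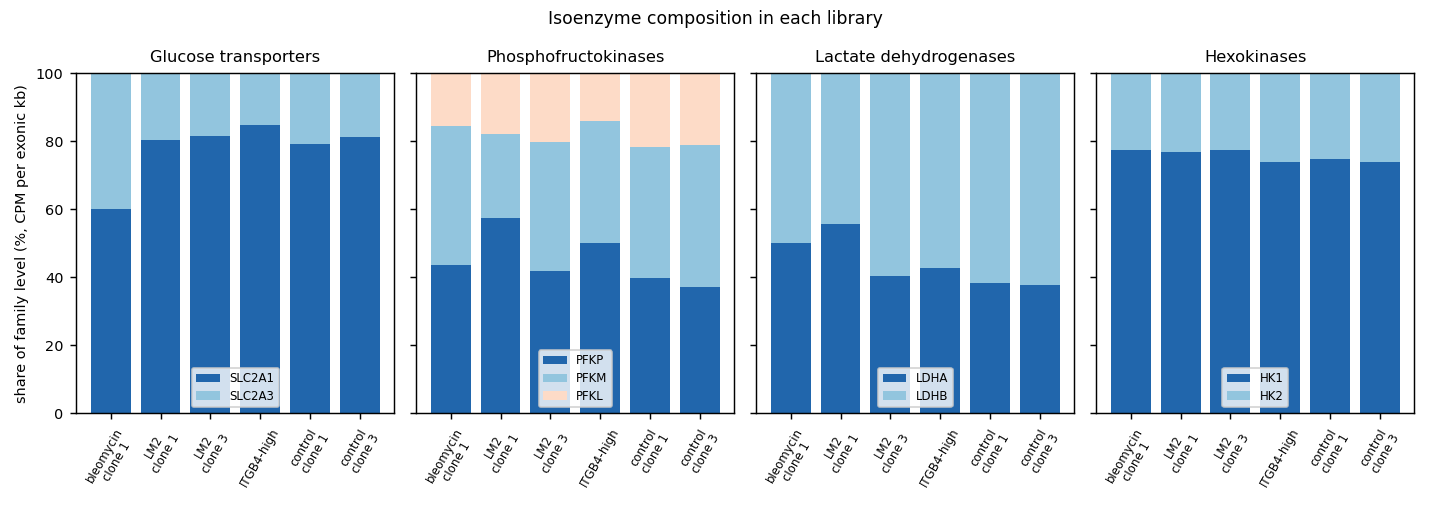
Stacked bars give the share (%) of each isoenzyme in the summed level of its family, in CPM per exonic kilobase, for 4 families in each of the 6 libraries. The share of SLC2A3 is largest in the bleomycin library (39.8%), PFKP and LDHA are largest in LM2 clone 1 (57.4% and 55.6%), and the hexokinase shares are nearly level.

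The phosphofructokinases, which commit sugar to glycolysis, went different ways by isoform. The platelet form PFKP stood at 115 CPM in the bleomycin library, 132 and 91.8 CPM in LM2 clones 1 and 3, 92.7 CPM in ITGB4-high cells, and 84.2 and 80.8 CPM in controls (lung against control 0.45, SE 0.18, adjusted p = 0.227). The muscle form PFKM stood at 163 CPM in the bleomycin library, 86.1 and 126 CPM in LM2 clones 1 and 3, 100.2 CPM in ITGB4-high cells, and 122 and 137 CPM in controls, so that the lung libraries lay on both sides of the controls. The liver form PFKL was near-constant outside ITGB4-high cells, at 75.7 to 80.8 CPM in lung cells, 47.7 CPM in ITGB4-high cells, and 84.6 and 85.1 CPM in controls.

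Most genes of the middle and lower steps were abundant, with lung levels near control. GAPDH, the glyceraldehyde-phosphate dehydrogenase often used as a loading reference, stood at 1935 CPM in the bleomycin library, 2013 and 2108 CPM in LM2 clones 1 and 3, 2243 CPM in ITGB4-high cells, and 1900.1 and 2020.1 CPM in controls (lung against control 0.04, SE 0.13, adjusted p = 0.877). Per kilobase GAPDH was also the most abundant member in controls (658 CPM per kb), ahead of DDIT4 (356), ENO1 (287), LDHB (220.1) and pyruvate kinase PKM (149.6). The enolase ENO1 averaged 1697 ± 47.4 CPM in lung cells (SD, n = 3) and 1516 ± 49.5 CPM in controls (SD, n = 2), with a fitted change of 0.16 (adjusted p = 0.499). The isomerases GPI (0.18) and TPI1 (-0.12), the kinases PGK1 (-0.09) and PKM (0.11) and the mutase PGAM1 (0.09) all lay within 0.2 of 0 on the log2 scale in lung cells against control. Their SEs ran from 0.12 to 0.23.

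The brain-type isoenzymes ALDOC, an aldolase, and ENO2, an enolase, were low in the same libraries. ALDOC stood at 8.96 CPM in the bleomycin library, 3.02 and 6.64 CPM in LM2 clones 1 and 3, 2.41 CPM in ITGB4-high cells, and 7.40 and 9.04 CPM in controls. ENO2 stood at 9.98 CPM in the bleomycin library, 3.10 and 6.58 CPM in LM2 clones 1 and 3, 4.08 CPM in ITGB4-high cells, and 7.75 and 9 CPM in controls. Both were low in LM2 clone 1 and in ITGB4-high cells, with both LM2 libraries under both controls. For ALDOC the fitted change was -0.76 for LM2 (SE 0.44, adjusted p = 0.417) and -1.77 for ITGB4-high (SE 0.59, adjusted p = 0.166). The general aldolase ALDOA, usually abundant, had just 490 counts over the 6 libraries, and 42.3% of its exonic bases overlap another annotated gene on the same strand. PGAM1 had 993 counts. The levels of ALDOA and PGAM1 are therefore uncertain, because how shared reads were counted is not given in the sources used here.

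The flux regulators stood at an extreme level in the 1 ITGB4-high library, but none passed the test. Against control, the adjusted p in edgeR was 0.0922 for PFKFB3, 0.0899 for PFKFB4 and 0.30 for PDK1. PFKFB3 and PFKFB4 make and break fructose 2,6-bisphosphate, the strongest activator of phosphofructokinase. PFKFB3 stood at 38.9 CPM in the bleomycin library, 44.5 and 31.9 CPM in LM2 clones 1 and 3, 66.8 CPM in ITGB4-high cells, and 27.5 and 31.0 CPM in controls. PFKFB4 stood at 2.18 CPM in the bleomycin library, 2.09 and 1.72 CPM in LM2 clones 1 and 3, 7.65 CPM in ITGB4-high cells, and 2.42 and 2.16 CPM in controls. For both genes ITGB4-high was the highest of the 6 libraries. Of the exonic bases of PFKFB4, 4.7% overlap UCN2 on the same strand. UCN2 held 210 counts over the 6 libraries beside 275 for PFKFB4. PDK1, the kinase that switches off pyruvate dehydrogenase, was the reverse, at 129.9 CPM in the bleomycin library, 111 and 123 CPM in LM2 clones 1 and 3, 80.3 CPM in ITGB4-high cells, and 99.9 and 97.3 CPM in controls.

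Among the other hypoxia-induced genes, ADM (adrenomedullin, a secreted vasodilator peptide; ENSG00000148926, chromosome 11, 10304680 to 10307397, plus strand) had the lowest ratio of any member. ADM stood at 9.22 CPM in the bleomycin library, 6.27 and 4.47 CPM in LM2 clones 1 and 3, 2.48 CPM in ITGB4-high cells, and 16.2 and 32.5 CPM in control clones 1 and 3. All 4 other libraries lay below both controls, although the controls themselves differed by 1.00 on the log2 scale. Lung cells averaged 6.65 ± 2.40 CPM (SD, n = 3) and controls 24.3 ± 11.5 CPM (SD, n = 2), a log2 fold change of -1.87 (SE 0.40, adjusted p = 0.101 in edgeR, 0.00184 in DESeq2). The 177 tested genes within 10 Mb of ADM had medians of 0.60, 0.41 and -0.06 for bleomycin, LM2 clone 1 and LM2 clone 3 over their own controls, while ADM had -0.80, -1.35 and -2.83. Endothelial cells are known to make ADM, and the summed CPM of 5 endothelial markers was 11.2 in the bleomycin library, 2.55 and 10.3 in LM2 clones 1 and 3, 6.12 in ITGB4-high cells, and 72.7 and 108 in controls. These markers are counts of human genes, and the controls, where the sum was highest, are dish-grown SUM159 cells. KDR alone carried that sum in the controls (70.7 and 105 CPM), and CDH5 had 0 counts in all 6 libraries. PECAM1 went the other way, at 9.41 CPM in the bleomycin library, 2.32 and 3.64 CPM in LM2 clones 1 and 3, 3.06 CPM in ITGB4-high cells, and 1.80 and 2.02 CPM in controls. The part of these markers in the ADM values was not tested.

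ANGPTL4, a secreted inhibitor of lipoprotein lipase (chromosome 19, 8363289 to 8374373, plus strand), was nearly silent in controls and varied most. ANGPTL4 stood at 3.01 CPM in the bleomycin library, 6.42 and 0.638 CPM in LM2 clones 1 and 3, 8.46 CPM in ITGB4-high cells, and 0.207 and 0.413 CPM in controls. The control values are 3 and 9 counts. Over its own control the ratio was 14.5 for bleomycin (95% counting interval 4.67 to 72.8, exact binomial), 31 for LM2 clone 1 (10.2 to 153) and 1.55 for LM2 clone 3 (0.564 to 4.30). The clone 1 lung libraries were thus far above their control and the clone 3 library was not beyond counting error. Across the lung libraries the fitted change was 3.33 (SE 1.05, adjusted p = 0.174 in edgeR, 0.0104 in DESeq2).

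CA9, the membrane carbonic anhydrase much used as a hypoxia marker (chromosome 9, 35673856 to 35681159, plus strand), was close to the detection floor everywhere. CA9 stood at 1.41 CPM in the bleomycin library, 0.542 and 0.766 CPM in LM2 clones 1 and 3, 0.437 CPM in ITGB4-high cells, and 0.207 and 0.0918 CPM in controls, which hold 3 and 2 counts. Summed, the lung libraries had 41 counts and the controls 5, a CPM ratio of 6.72 (95% counting interval 2.66 to 21.8). Over its own control the ratio was 6.79 for bleomycin (2.04 to 35.4), 2.61 for LM2 clone 1 (0.596 to 15.6) and 8.34 for LM2 clone 3 (1.86 to 76.8). ITGB4-high over the summed controls was 3.17 (0.806 to 13.1). Neither LM2 clone 1 nor ITGB4-high was thus beyond counting error. The adjusted p was 0.146. The overlap of 38.5% of its exonic bases with ARHGEF39 on the opposite strand makes so low a count uncertain, since the strand setting of the counting is not given in the sources used here.

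VEGFA, the main growth factor of blood vessels (ENSG00000112715, chromosome 6, 43770184 to 43786487, plus strand), was above both controls in all other libraries. VEGFA stood at 379 CPM in the bleomycin library, 656 and 392 CPM in LM2 clones 1 and 3, 781 CPM in ITGB4-high cells, and 307 and 254 CPM in controls. Lung cells averaged 475 ± 156 CPM (SD, n = 3) and controls 280.2 ± 37.3 CPM (SD, n = 2), a log2 fold change of 0.76 (SE 0.28, adjusted p = 0.213).

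The mitophagy receptors BNIP3L and BNIP3, which mark mitochondria for removal, and NDRG1, a stress-responsive gene linked to differentiation, were below both controls in every lung library. BNIP3L stood at 112 CPM in the bleomycin library, 85.1 and 119.7 CPM in LM2 clones 1 and 3, 122 CPM in ITGB4-high cells, and 184 and 191 CPM in controls. Its fitted change of -0.82 (SE 0.17) had the smallest adjusted p of any member in this comparison, 0.0935 in edgeR and 0.00251 in DESeq2. NDRG1 stood at 51.0 CPM in the bleomycin library, 47.1 and 43.9 CPM in LM2 clones 1 and 3, 75 CPM in ITGB4-high cells, and 69.0 and 87.4 CPM in controls (-0.72, SE 0.15, adjusted p = 0.0946 in edgeR, 0.00763 in DESeq2). For NDRG1 the ITGB4-high library lay between the controls and above all lung libraries, which sets it apart from BNIP3L. BNIP3 was at 30.0 to 36.9 CPM in lung cells, 33.3 CPM in ITGB4-high cells, and 39.8 and 39.9 CPM in controls (-0.27, adjusted p = 0.328).

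The remaining hypoxia-induced members differed little between lung and control cells. DDIT4 (REDD1, an inhibitor of mTORC1) stood at 671 CPM in the bleomycin library, 1012 and 799.8 CPM in LM2 clones 1 and 3, 463 CPM in ITGB4-high cells, and 753 and 712 CPM in controls. EGLN3, a prolyl hydroxylase that marks HIF for decay and is itself a HIF target, stood at 16 CPM in the bleomycin library, 15.9 and 16.7 CPM in LM2 clones 1 and 3, 8.24 CPM in ITGB4-high cells, and 15.1 and 14.5 CPM in controls. The ITGB4-high library was the lowest for both genes. The collagen prolyl hydroxylases P4HA1 (-0.20) and P4HA2 (0.20), the histone demethylase KDM3A (0.00) and the ankyrin-repeat gene ANKRD37 (0.09) had fitted changes near 0 in lung cells. Opposite-strand genes overlap 41.2% of the exonic bases of DDIT4 and 35.2% of those of ANKRD37.

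**Figure D4:**
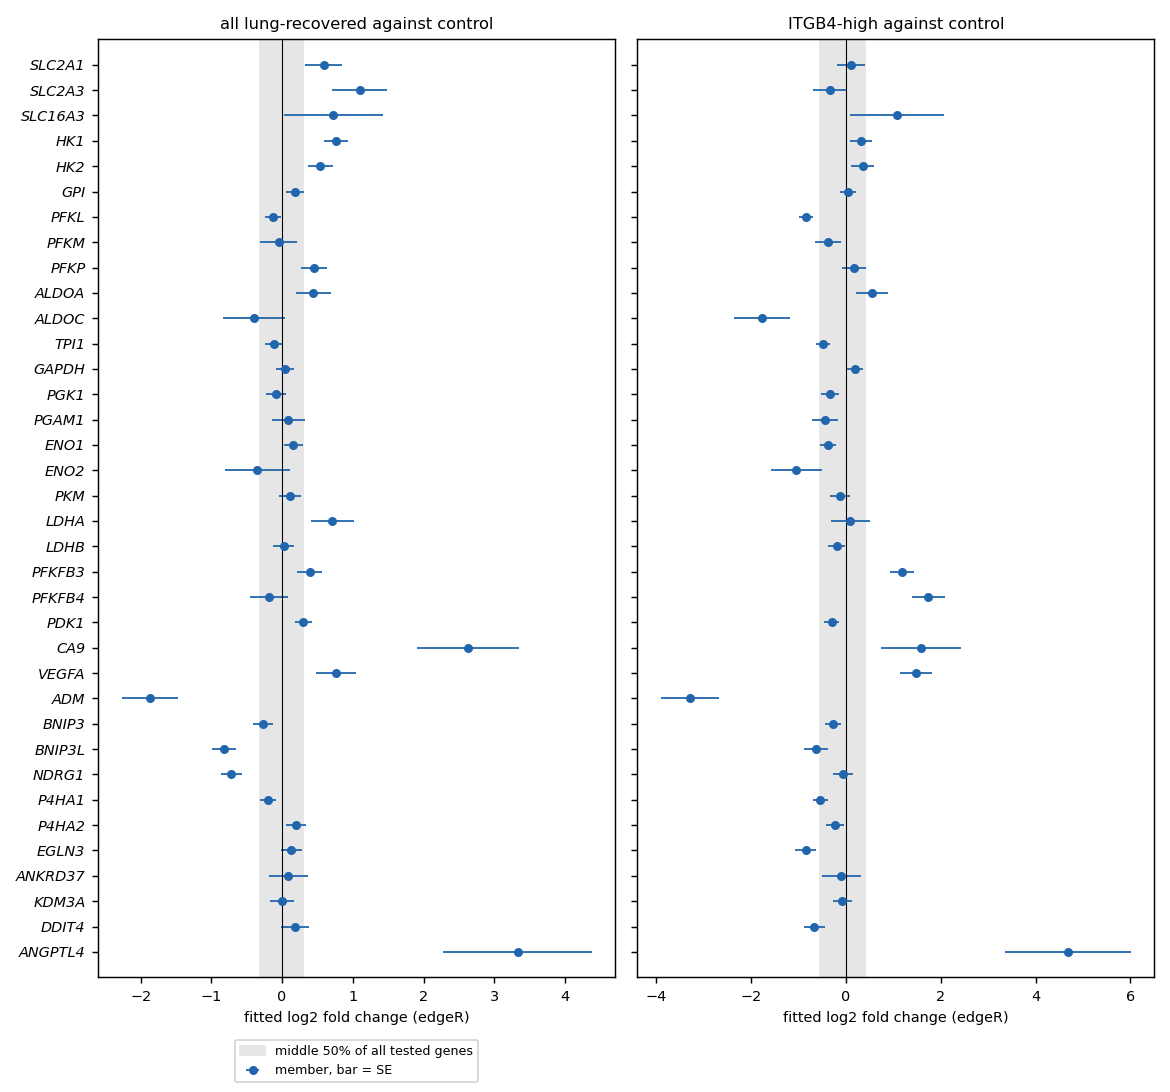
Points give the fitted log2 fold change (edgeR) of each of the 36 genes with its SE as a bar, for all lung-recovered cells against control (left) and ITGB4-high against control (right), and the grey band holds the middle 50% of all tested genes. ADM is the lowest point in both panels (-1.87 and -3.29) and ANGPTL4 the highest (3.33 and 4.68), while most enzymes lie near or inside the band.

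LM2 lung cells were compared with dish-grown control cells. This comparison holds the LM2 trigger together with the lung passage, dissociation, night in culture and sort, which cannot be told apart. Of the 36 genes, 0 passed in edgeR (0.0319% of all genes did) and 0 in limma-voom. DESeq2 called 4 (11.4% of members against 4.48% of all genes), with HK1 and ANGPTL4 higher (2.43% of all genes) and ADM and BNIP3L lower (2.04%). With no adjustment, 6 were higher (7.29% of all genes) and 4 lower (8.33%), 27.8% of members against 15.6%. The smallest adjusted p was that of ADM, with 5.37 ± 1.27 CPM in LM2 cells and 24.3 ± 11.5 CPM in controls (SD, n = 2 each; log2 fold change -2.18, SE 0.42, adjusted p = 0.192). Both LM2 libraries lay above both controls for 16 members (26.2% of all genes did so) and below both for 9 (30.2%). Without LM2 clone 3 the edgeR count was 18 (50%, against 40.4% of all genes) and without LM2 clone 1 it was 6 (16.7%, against 11.8%), since the spread then rests on the control pair alone.

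The LM2 libraries of the 2 clones differed in how far the members stood from their own controls. Each clone has 1 LM2 library, so a difference between clones cannot be told apart from one between libraries. Beyond 0.5 on the log2 scale, LM2 clone 1 had 11 members higher and 6 lower (47.2%, against 45.7% of all genes), and LM2 clone 3 had 4 higher and 4 lower (22.2%, against 28.9%). The bleomycin library of clone 1 had 7 higher and 2 lower (25%, against 36.2%). Between the 2 controls themselves, 2 were higher and 1 lower in clone 3 (8.33%, against 13.3%). The members' share was within 2 points of that of all genes in LM2 clone 1 and below it in the other comparisons. VEGFA, at 2.14-fold and 1.54-fold over its own control in LM2 clones 1 and 3, and HK1, at 2.12-fold and 1.41-fold, were higher in both clones. In contrast, of the 2 LM2 libraries, SLC16A3, LDHA and ANGPTL4 were high in that of clone 1 alone.

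**Figure D5:**
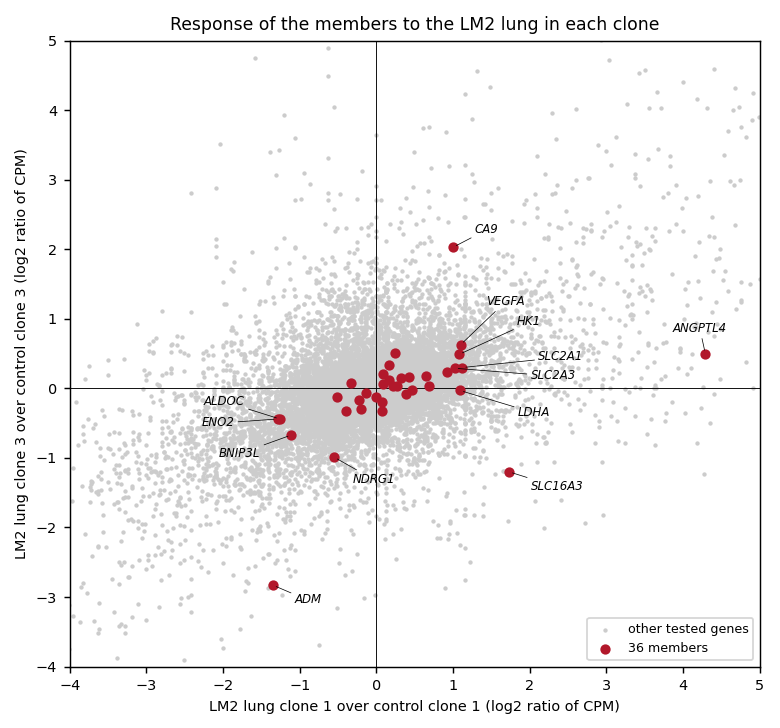
Each point is a gene, with its log2 ratio of LM2 lung over control in clone 1 on the horizontal axis and in clone 3 on the vertical axis (36 members in red, other tested genes in grey, axes limited to -4 to 5). SLC16A3 (1.73 and -1.20), LDHA (1.09 and -0.03) and ANGPTL4 (4.29 and 0.50) lie off the diagonal, while ADM (-1.35 and -2.83) and BNIP3L (-1.11 and -0.67) are low in both clones.

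Bleomycin lung cells were compared with control cells on 1 library. Of the 36 genes, 0 passed in edgeR (0.0255% of all genes did) and 0 in limma-voom, and DESeq2 called SLC2A3 alone (2.86% of members against 4.19% of all genes, of which 1.83% higher and 2.35% lower). With no adjustment, SLC2A3, HK1, PDK1 and CA9 were higher (4 members, against 6.65% of all genes) and ADM, BNIP3L and NDRG1 lower (3 members, against 7.8%), together 19.4% against 14.5%. Leaving out LM2 clone 1 or LM2 clone 3, which leaves the control pair to set the spread, gave 14 members each time, 12 higher and 2 lower (38.9%, against 28.3% of all genes without LM2 clone 1 and 27.2% without LM2 clone 3). PDK1 had a fitted change of 0.40 (SE 0.15, adjusted p = 0.339) and PFKM 0.33 (SE 0.26, adjusted p = 0.601).

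Set directly against LM2 lung cells, bleomycin lung cells differed in 0 members by edgeR (0% of all genes), by limma-voom or by DESeq2 (0.404% of all genes, 0.101% higher and 0.303% lower). With no adjustment 1 member had p under 0.05 (2.78%, against 4.61% of all genes, 2.04% higher and 2.58% lower). That gene was SLC2A3, at 101 CPM in the bleomycin library and 66.1 and 38.9 CPM in LM2 clones 1 and 3 (0.95, SE 0.33, adjusted p = 0.926). ENO2 (1.04, SE 0.49), CA9 (1.09, SE 0.61) and ALDOC (0.88, SE 0.52) had estimates of like size with adjusted p = 0.926 each. Without LM2 clone 3 the count was 10 (27.8%, against 19.4% of all genes) and without LM2 clone 1 it was 4 (11.1%, against 7.57%). LDHA turned to -0.09 without LM2 clone 3 and was 0.84 without LM2 clone 1, against 0.30 with both.

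ITGB4-high cells were compared with ITGB4-low controls to ask how the 2 states differ in a dish. Of the 36 genes, 0 passed in edgeR (0.0893% of all genes did) and 0 in limma-voom. DESeq2 called 5 (14.3% of members against 10.7% of all genes), with PFKFB3, VEGFA and ANGPTL4 higher (3.45% of all genes) and PFKL and ADM lower (7.27%). With no adjustment, 4 were higher (10.4% of all genes) and 7 lower (14.2%), 30.6% of members against 24.5%. The members' median was -0.16 against -0.01 for all genes, and 22 of the 36 estimates were below 0. Without LM2 clone 1 the edgeR count was 20 (55.6%, against 42.2% of all genes), without LM2 clone 3 it was 21 (58.3%, against 41.3%), and without either control it was 0.

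The most extreme members were ADM, with 2.48 CPM in ITGB4-high cells and 24.3 ± 11.5 CPM in controls (SD, n = 2; log2 fold change -3.29, SE 0.61, adjusted p = 0.080), and ANGPTL4, with 116 counts against 12 in both controls together, a CPM ratio of 25.5 (95% counting interval 14.1 to 50.9; adjusted p = 0.134). VEGFA was 2.79-fold higher than the control mean (1.48, SE 0.34, adjusted p = 0.101 in edgeR, 0.00237 in DESeq2). PFKFB3 was 2.28-fold higher (1.19, SE 0.25, adjusted p = 0.0922) and PFKFB4 3.34-fold higher (1.74, SE 0.35, adjusted p = 0.0899). PFKL, at 0.562 of the control mean, shared the smallest adjusted p with ADM (-0.83, SE 0.15, adjusted p = 0.080). The HIF hydroxylase EGLN3 (-0.84, SE 0.22, adjusted p = 0.119), DDIT4 (-0.66, SE 0.22, adjusted p = 0.161), P4HA1 (-0.54, SE 0.16, adjusted p = 0.143) and TPI1 (-0.48, SE 0.15, adjusted p = 0.152) were lower at an unadjusted p under 0.05 alone.

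Lung-recovered cells were also set against ITGB4-high cells. Of the 36 genes, 0 passed in edgeR (0.108% of all genes did) and 0 in limma-voom, while DESeq2 called PFKL, ENO1, PDK1, EGLN3 and DDIT4 higher (5.82% of all genes) and PFKFB4 lower (2.19%), 17.1% of members against 8.02% of all genes. With no adjustment, 6 were higher (10.4% of all genes) and 3 lower (7.86%), 25% of members against 18.3%. PFKFB4 had the smallest adjusted p, with 2 ± 0.240 CPM in lung cells (SD, n = 3) and 7.65 CPM in ITGB4-high cells (-1.94, SE 0.31, adjusted p = 0.0835 in edgeR, 0.00329 in DESeq2). EGLN3 averaged 16.2 ± 0.399 CPM in lung cells against 8.24 CPM in ITGB4-high cells (0.98, SE 0.21, adjusted p = 0.109). SLC2A3 averaged 68.8 CPM in lung cells against 25.5 CPM in ITGB4-high cells (1.43, SE 0.52, adjusted p = 0.236). Without LM2 clone 1 the edgeR count was 7 (19.4%, against 9.04% of all genes), without any other library 0.

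Among 9 tested genes that control HIF itself, edgeR called 0 in each comparison (0.498% of all genes in lung cells against control). With no adjustment, 1 was higher (9.26% of all genes) and 2 lower (11.3%) in lung cells against control. DESeq2 called the same count in each direction (4.48% of all genes higher and 4.36% lower). DESeq2 also called 2 higher in lung cells against ITGB4-high (5.82% of all genes). Against control it called 2 lower in each of LM2 (2.04% of all genes), bleomycin (2.35%) and ITGB4-high (7.27%). HIF1A, the oxygen-sensitive subunit, which is regulated chiefly as a protein, stood at 1532 CPM in the bleomycin library, 1365 and 1465 CPM in LM2 clones 1 and 3, 693 CPM in ITGB4-high cells, and 1039.9 and 1065 CPM in controls. All lung libraries were above both controls and ITGB4-high below them (lung against control 0.47, SE 0.13, adjusted p = 0.155 in edgeR and 0.00392 in DESeq2; lung against ITGB4-high 1.07, SE 0.18, adjusted p = 0.0881). CITED2, which competes with HIF for its coactivator, stood at 69.8 CPM in the bleomycin library, 76.1 and 104 CPM in LM2 clones 1 and 3, 57.0 CPM in ITGB4-high cells, and 163 and 241 CPM in controls (lung against control -1.28, adjusted p = 0.0808 in edgeR, 0.000331 in DESeq2). In ITGB4-high against control the fitted change of CITED2 was -1.82 (adjusted p = 0.0857, and 0.037 with the clone as a block). ARNT2, a relative of the partner subunit ARNT, stood at 1.66 CPM in the bleomycin library, 1.24 and 6.89 CPM in LM2 clones 1 and 3, and 40.7 CPM in each control (lung against control -3.62, SE 0.68, adjusted p = 0.0814 in edgeR, 1.11e-05 in DESeq2, 0.0467 in limma-voom). It had 0 counts in ITGB4-high cells, at least 186-fold lower than the control mean against a floor of 3 counts in that library.

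Of 29 tested further hypoxia-induced genes, edgeR called 0 in lung cells against control, and DESeq2 called 5 higher and 2 lower (4.48% and 4.36% of all genes). With no adjustment, 6 were higher (9.26% of all genes) and 7 lower (11.3%), and the median was 0.02. The lipoprotein receptor VLDLR stood at 15.3 CPM in the bleomycin library, 13.4 and 22.2 CPM in LM2 clones 1 and 3, 1.24 CPM in ITGB4-high cells, and 5.12 and 5.97 CPM in controls (lung against control 1.61, SE 0.28, adjusted p = 0.0751 in edgeR, 7.26e-05 in DESeq2). The transcriptional repressor BHLHE40 stood at 105 CPM in the bleomycin library, 140.4 and 65.1 CPM in LM2 clones 1 and 3, 86.2 CPM in ITGB4-high cells, and 24.3 and 33.0 CPM in controls (1.85, SE 0.35, adjusted p = 0.0817 in edgeR, 2.54e-05 in DESeq2). The glycogen regulator PPP1R3C was at -1.43 (adjusted p = 0.114 in edgeR, 0.0032 in DESeq2) and FAM162A at 0.50 (adjusted p = 0.134 in edgeR, 0.0304 in DESeq2). In ITGB4-high cells against control edgeR called 1 of the 29 (0.0893% of all genes), and DESeq2 called 1 higher and 4 lower (3.45% and 7.27% of all genes). The gene called by edgeR, LOX, a collagen crosslinker, fell to 4.45 CPM, against 49.2 and 56.5 CPM in controls (-3.57, SE 0.23, adjusted p = 0.0414 in edgeR, 0.0658 in limma-voom), with 25.7 CPM in the bleomycin library and 36.4 and 38.4 CPM in LM2 clones 1 and 3. Its relative LOXL2 was at -2.79 (adjusted p = 0.0514, 0.026 with the clone as a block, 7.12e-21 in DESeq2), and TMEM45A at -2.98 (adjusted p = 0.0955, 1.91e-05 in DESeq2).

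Genes of neighbouring pathways gave no calls by edgeR or DESeq2 in lung cells against control: 0 of 8 tested in the pentose phosphate pathway (median 0.20), 0 of 12 in pyruvate entry into mitochondria (median 0.09), 0 of 8 in other glycolysis genes (median -0.19) and 0 of 5 in glucose sensing (median -0.04). Over all genes edgeR called 0.498% and DESeq2 8.85%, so 0 calls in lists this short do not set them apart from other genes. With no adjustment, 0 were higher in each list, against 9.26% of all genes. In the same order, 1, 2, 2 and 1 were lower, against 11.3% of all genes. The pyruvate dehydrogenase subunit PDHB was at -0.55 (SE 0.16, adjusted p = 0.158). TXNIP, which restrains glucose uptake and follows the glucose inside the cell, stood at 1647 CPM in the bleomycin library, 1074 and 1336 CPM in LM2 clones 1 and 3, 819 CPM in ITGB4-high cells, and 1887 and 2094 CPM in controls. TXNIP was thus lower than both controls in all other libraries, least so in the bleomycin library (lung against control -0.56, SE 0.21, adjusted p = 0.213).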

How the data were processed

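Library preparation, per the labels' protocols, used oligo-dT capture of poly(A) RNA and the KAPA mRNA HyperPrep chemistry, in which dUTP marks the strand. STAR 2.7.1a and the build hg38 are named, per the submitters' processing notes. The authors deposited whole-number read counts per gene for 6 libraries. Which program counted the reads, on which annotation and with which strand option was not given in the sources used here. Of 58336 identifiers, 58216 matched GENCODE release 29 (GRCh38) and 120 did not. Promoter windows came from RefSeq (GRCh38.p14).

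Differences were tested with edgeR 4.0.16 (R 4.3.3) quasi-likelihood fits with TMM factors, a filterByExpr minimum count of 10 and Benjamini-Hochberg adjustment over 15673 genes. A fit of 4 groups (2 residual degrees of freedom, biological coefficient of variation 0.244) gave the LM2, bleomycin and ITGB4-high comparisons, so a group holding 1 library borrowed its spread from the others. A fit of 3 classes (3 residual degrees of freedom, 0.243) gave those with all lung-recovered libraries. The script was tested on simulated data. Own-clone log2 ratios used CPM with a prior count of 2, and levels per kilobase used the exonic length. Alternatives were RLE and upper-quartile factors, no filter on low counts, DESeq2 1.42.0, limma-voom (limma 3.58.1), the clone as a block, and each library left out in turn.

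The titles give the clone of each library, so libraries with the same number share a clone, while the treatment text names clone 1 alone. The deviations of clones 1 and 3 correlated at 0.00115 between LM2 and control libraries over 15673 genes.

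Values in every library were given for the 6 members with the largest fitted change in each comparison (mean log2 CPM of 2 or more) and for SLC2A1, LDHA, CA9, VEGFA and GAPDH; other members so given, such as ANGPTL4, PFKFB4 and PFKL, were picked after their values were seen. Up to 4 genes per further list were named within a comparison, by smallest p. The members and lists were chosen with earlier results of these data known.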

Additional observations from a re-analysis of the deposited data

Results flagged for a closer look

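For 5 members the bleomycin library moved one way from its own control while both LM2 libraries moved the other way. That is 13.9% of the members, against 13.2% of all tested genes, so the share is near the background. The direct test of bleomycin against LM2 passed for none of them in edgeR. The glycolytic enzymes PFKM, ALDOC and ENO2 were higher in the bleomycin library and lower in both LM2 libraries. PFKM had an own-clone log2 ratio of 0.42 for bleomycin, against -0.51 and -0.13 for LM2 clones 1 and 3 (adjusted p of the difference 0.926). ALDOC had 0.27, against -1.26 and -0.44 (adjusted p = 0.926). ENO2 had 0.36, against -1.29 and -0.44 (adjusted p = 0.926). The hypoxia genes ANKRD37 and DDIT4 went the other way. ANKRD37 had -0.14, against 0.22 and 0.04 (adjusted p = 0.964). DDIT4 had -0.17, against 0.43 and 0.17 (adjusted p = 0.926). The bleomycin arm is 1 library of clone 1.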

How the results depend on the processing

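The count of members called was 0 in each of the 6 comparisons, and it was also 0 with RLE factors, upper-quartile factors, limma-voom and the replicate block. Without the filter on low counts it was 11 for lung-recovered against control, 6 for lung-recovered against ITGB4-high, 10 for LM2 against control, 6 for bleomycin against control, 8 for ITGB4-high against control and 1 for bleomycin against LM2. The number of genes tested without the filter is not given here, so the unfiltered counts have no share of all genes beside them. Of all genes, DESeq2 called 8.85%, 8.02%, 4.48%, 4.19%, 10.7% and 0.404% in the same order. The DESeq2 count of members was 5, 6, 4, 1, 5 and 0 (14.3%, 17.1%, 11.4%, 2.86%, 14.3% and 0% of members). With 1 library left out it ran from 0 to 4, 0 to 7, 0 to 18, 0 to 14, 0 to 21 and 0 to 10, and every count above 0 came from leaving out an LM2 library. The lone library left in an arm is then assumed to vary like the other groups.

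The count of all genes called was 78, 17, 5, 4, 14 and 0. It was 2152, 1406, 1748, 1430, 2707 and 236 without the filter and 1279, 1086, 647, 580, 1517 and 56 in DESeq2. RLE factors gave 14 for LM2 and 74 for ITGB4-high, each against control, upper-quartile factors 14 and 67, and limma-voom 2 and 2. The clone as a replicate block added a clone term, which left 1 residual degree of freedom in the fit of 4 groups. The block gave 39, 0, 36, 8, 363 and 0 genes and changed no call of a member. Of the pathway genes, it called CITED2 and LOXL2 in ITGB4-high against control, which edgeR without the block did not. The ITGB4-high library has no clone number and so no control of its own clone. Its place in the clone term is an assumption, on which the 363 genes and these calls of CITED2 and LOXL2 rest. With 1 library left out the gene counts ran from 0 to 1015, 0 to 1417, 0 to 6335, 0 to 4440, 0 to 6613 and 0 to 3036. Why the filter and the tool move these counts so far was not tested.

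Of the fitted changes of named members under the alternatives, 721 kept their direction and side of the threshold, 139 kept their direction and passed the threshold, and 2 turned. SLC16A3 in LM2 against control turned to -1.10 without LM2 clone 1 and ran up to 1.62 without LM2 clone 3. LDHA in bleomycin against LM2 turned to -0.09 without LM2 clone 3 and ran up to 0.84 without LM2 clone 1. Depth limits CA9, ANGPTL4 in controls and PFKFB4, all with few counts.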

Other observations

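HMOX1, the haem-degrading enzyme and a stress gene on the list of further hypoxia-induced genes, stood at 52.9 CPM in the bleomycin library, 25.8 and 23.9 CPM in LM2 clones 1 and 3, 15.8 CPM in ITGB4-high cells, and 15.2 and 15.4 CPM in controls. All lung libraries were above both controls and the bleomycin library was highest. Against control the bleomycin library was at 1.79 on the log2 scale (SE 0.17, adjusted p = 0.0896 in edgeR, 1.09e-05 in DESeq2), and against LM2 lung cells at 1.09 (SE 0.18, adjusted p = 0.875 in edgeR, 0.172 in DESeq2). The summed macrophage and myeloid markers, which are counts of human genes, were highest in the same library. Their part in the HMOX1 value was not tested.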
